A study of Mus musculus with 36 samples.

Results

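The expression of 34 genes of the lysosome was followed in conventional dendritic cells grown from mouse bone marrow. The genes were taken by name and fall into 5 roles: 4 membrane proteins (Lamp1, Lamp2, Cd63, Mcoln1), 4 genes of lysosomal control (Tfeb, Tfe3, Mitf, Rragd), 8 glycosidases (Gla, Glb1, Gaa, Gusb, Hexa, Neu1, Naglu, Manba), 7 other hydrolases or their activators (Lipa, Asah1, Smpd1, Psap, Grn, Tpp1, Ppt1) and 11 subunits of the proton pump. They are 34 of the 53299 genes in the table, and all 34 were among the 12463 genes with enough counts to test. Cathepsins were not included.

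The cells were cDC2 and cDC1 cultured with FLT3 ligand, a growth factor that drives dendritic cell development, and both kinds share bone marrow as their source. Each kind had received LPS_PGPC, LPS, PGPC or Nothing. LPS is a bacterial outer-membrane lipid sensed by TLR4, PGPC is an oxidized phospholipid, and LPS_PGPC is both. The labels used here give no strain, age, dose or exposure time. Each group had 3 libraries (replicates 4, 5 and 6 for cDC2, and 1, 2 and 3 for cDC1), except cDC2 with PGPC, which had 2 (replicates 4 and 5) because a library of 3799 counts was left out. The 12 libraries with alum were not used, so 23 of 36 libraries remained. The series design calls the replicates biological but the labels do not tie them to separate animals or cultures, so p-values measure the spread between these libraries, which may be technical. RNA worth about 2000 cells was converted to cDNA by Smart-Seq2, which amplifies full-length transcripts.

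Lysosomes are acidic organelles in which hydrolases digest material brought in by endocytosis, phagocytosis and autophagy. Their acidity comes from the V-ATPase, a rotary pump whose cytosolic V1 sector splits ATP and whose membrane V0 sector moves protons. TFEB and its relatives TFE3 and MITF switch on lysosomal genes through the CLEAR element, a promoter motif built around CACGTG, and Rag GTPases on the lysosome surface hold these factors in the cytosol when amino acids are plentiful. In dendritic cells the acidification of endosomes and lysosomes is known to set how much antigen is degraded and how much is kept for presentation.

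The CLEAR core was searched in RefSeq promoter windows on GRCm38.p6, each running from 250 bases before to 50 bases after an annotated start, and 29 of the 34 genes had at least 1 window. Asah1, Atp6v0d2, Atp6v1b2, Atp6v1c1 and Atp6v1h had none in the table. CACGTG reads the same on both strands and was present in 9 of the 29 genes, which is 31.0%, against 8.09% of 27025 genes in the table. The 9 were Lamp1, Mcoln1, Gla, Glb1, Gaa, Naglu, Atp6v0b, Atp6v0d1 and Atp6v1a. The longer palindrome TCACGTGA, which contains CACGTG, was present in 4 of them (13.8%; Mcoln1, Gla, Atp6v0d1 and Atp6v1a), against 1.12% of all genes. A still longer palindrome was also searched, TCACGTGA with a G before it and a C after it. It was present in 0 of the 29 genes, against 0.370% of all genes. The 34 genes were picked as lysosome genes, the class this element is known to control, and the 27025 genes were not matched to them. The shares therefore describe the promoters and are no test of the 34. A match in a window describes the letters there and does not show a bound site. The 5 promoters below are those of the 9 genes whose expression passed the test in at least 1 comparison; each shows the 250 bases before the start, 5′ to 3′ on the strand of the gene, with TCACGTGA in capitals, or CACGTG where the longer form is absent. The regions are chr16:44139260-44139509 (minus strand) for Atp6v1a, chrX:134601006-134601255 (minus) for Gla, chr8:3500269-3500518 (plus) for Mcoln1, chr11:101069844-101070093 (plus) for Naglu and chr9:114400828-114401077 (plus) for Glb1.
Atp6v1a: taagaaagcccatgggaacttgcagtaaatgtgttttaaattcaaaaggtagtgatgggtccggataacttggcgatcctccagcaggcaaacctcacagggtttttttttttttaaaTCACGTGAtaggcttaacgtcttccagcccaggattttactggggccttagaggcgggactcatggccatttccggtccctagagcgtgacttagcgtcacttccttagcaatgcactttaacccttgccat
Gla: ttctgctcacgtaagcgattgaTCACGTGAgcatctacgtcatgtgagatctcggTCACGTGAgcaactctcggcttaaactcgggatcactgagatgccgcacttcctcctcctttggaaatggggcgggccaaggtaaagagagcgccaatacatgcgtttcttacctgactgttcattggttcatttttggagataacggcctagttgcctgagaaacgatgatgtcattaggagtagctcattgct
Mcoln1: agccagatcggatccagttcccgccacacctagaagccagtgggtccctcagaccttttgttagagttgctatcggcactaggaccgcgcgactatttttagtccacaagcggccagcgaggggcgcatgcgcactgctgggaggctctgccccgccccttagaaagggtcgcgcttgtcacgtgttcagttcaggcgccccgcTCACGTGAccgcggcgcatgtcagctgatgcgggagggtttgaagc
Naglu: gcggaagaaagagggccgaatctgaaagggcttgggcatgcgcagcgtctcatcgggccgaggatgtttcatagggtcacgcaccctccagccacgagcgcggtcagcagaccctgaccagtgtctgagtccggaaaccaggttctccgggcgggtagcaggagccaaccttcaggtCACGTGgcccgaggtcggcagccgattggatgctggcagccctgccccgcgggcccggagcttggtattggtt
Glb1: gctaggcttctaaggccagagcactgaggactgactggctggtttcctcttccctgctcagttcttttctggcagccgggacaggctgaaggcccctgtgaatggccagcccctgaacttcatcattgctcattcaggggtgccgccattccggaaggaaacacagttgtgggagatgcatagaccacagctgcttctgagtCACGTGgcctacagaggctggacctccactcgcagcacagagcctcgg
The capitals end 124 bases before the RefSeq start of the window in Atp6v1a, 38 in Mcoln1, 67 in Naglu and 42 in Glb1. Gla holds 2 copies, which end 220 and 187 bases before its RefSeq start. The GENCODE M21 annotation starts Atp6v1a at 44139705, Mcoln1 at 3500457 and Naglu at 101070012. By those starts the capitals of Atp6v1a, Mcoln1 and Naglu lie inside the gene. Of these 5 genes, Glb1 and Naglu fell with LPS in cDC1 and Atp6v1a rose. Gla and Mcoln1 had negative log2 fold changes there and did not pass the test. Whether the 5 respond together was not tested.

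Levels are in CPM, a gene's counts relative to its library's total after TMM scaling, and levels of single genes are compared with each other as CPM per kilobase of exon. Summed levels add plain CPM without regard to length, so longer genes weigh more in them. A gene is said to rise, fall or be called where the adjusted p of edgeR's quasi-likelihood test was under 0.05 after Benjamini-Hochberg adjustment over all 12463 genes. The number after ± is the standard error where a log2 fold change is given, and the SD over libraries where a level is given. Library totals ran from 243861 counts (cDC2 with Nothing, replicate 6) to 16600980, and 9687 to 15608 genes were detected. The share of counts on the ribosomal RNA locus was 13.9 to 25.9% in cDC1 with LPS against 40.7 to 71.9% in untreated cDC1, and 21.3 to 26.4% in cDC2 with LPS against 28.6 to 37.3% in untreated cDC2. Of 8 cDC1 markers, 6 were lower in untreated cDC2 than in untreated cDC1, among them Clec9a and Batf3, while Xcr1 was near 0 in both (0.348 and 0.177 CPM). Of the cDC2 markers, Sirpa (1100 against 358 CPM) and Itgam (140 against 42.9 CPM) were higher in untreated cDC2, but Irf4 (2.61 against 24.9 CPM) was lower and Cd209a, Clec10a and Mgl2 had means of at most 5.93 CPM in either cell type. Csf1r, a receptor of the monocyte lineage, was at 1680 against 581 CPM, and Flt3, the receptor of the culture's growth factor, at 12.5 against 351 CPM. The libraries labelled cDC2 thus carried the lineage markers only in part. In bulk samples, fewer cells of a type and less RNA per cell cannot be told apart.

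In untreated cells the most abundant of the 34 transcripts per length was Psap, the precursor of the saposins that present glycolipids to their hydrolases, at 7677 ± 2479 CPM per kilobase in cDC2 and 5527 ± 794 in cDC1 (SD, n = 3 each). Grn, the precursor of the granulins, followed at 436 ± 125 in cDC2 and 333 ± 87.6 in cDC1, and Hexa, the alpha subunit of beta-hexosaminidase, at 288 ± 35.7 in cDC2 and 213 ± 74.3 in cDC1. The SDs of Grn and Hexa overlapped in both cell types, but within each untreated library Grn was the higher. In cDC2 Grn was at 472, 538 and 296 against 329, 264 and 270 for Hexa. In cDC1 it was at 237, 409 and 354 against 174, 299 and 167. This difference was not tested. Psap lay far above both. At the low end stood 3 of the 4 control genes: Tfeb (2.49 ± 0.312 CPM per kilobase) and Rragd (3.18 ± 0.399) were lowest in cDC2, and Mitf (1.03 ± 0.309) and Rragd (1.59 ± 1.13) in cDC1.

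With LPS, 7 of the 34 genes fell and 1 rose in cDC1. The genes that fell were the tetraspanin Cd63, the Rag GTPase Rragd, the glycosidases Glb1, Hexa and Naglu, the saposin precursor Psap and the V0 subunit Atp6v0d2, and the gene that rose was the catalytic V1 subunit Atp6v1a. Over all tested genes, 9.36% were called lower and 8.58% higher in this comparison (17.9% in all). The median log2 fold change of the 34 was -0.54, beside -0.12 over all tested genes, and 20 of the 34 were below 0. It was -0.29 without Nothing replicate 1 (-0.11 over all genes) and -0.34 without Nothing replicate 2 (-0.06). For 11 of the 34 every library with LPS lay under every untreated one and for 5 above, where 20.2% and 18.9% of all genes did so.

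**Figure D1:**
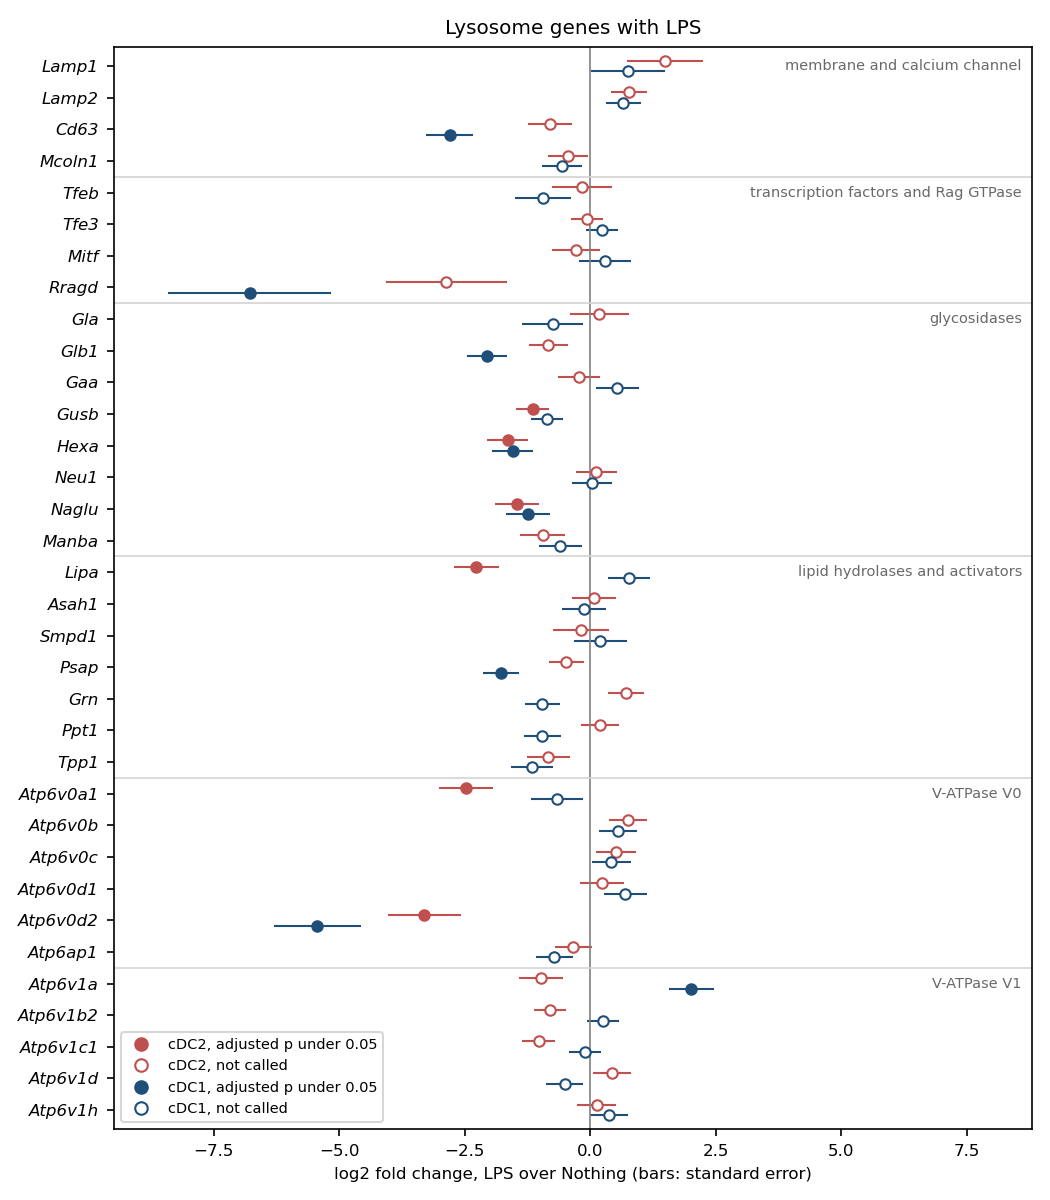
Log2 fold change (LPS over Nothing, horizontal axis) of each of the 34 genes, with bars of 1 standard error, grouped by role, for cDC2 and cDC1; filled points passed the adjusted threshold of 0.05. Atp6v0d2 lies far to the left in both cell types (-3.31 in cDC2 and -5.44 in cDC1), while Atp6v1a and Lipa lie on opposite sides of 0 in cDC2 and cDC1.

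Among the membrane genes of cDC1, Cd63 (chr10:128900989-128912822, plus strand, GRCm38), which sits in late endosomes and lysosomes, stood at 31.0, 27.2 and 40.0 CPM with LPS, against 119, 350 and 214 CPM with Nothing. Every library with LPS was below every untreated one. The log2 fold change was -2.80 ± 0.47, a level 6.96-fold lower (edgeR, adjusted p = 0.000164). Lamp1 and Lamp2, the heavily glycosylated proteins that coat the inner face of the membrane, had log2 fold changes of 0.75 ± 0.74 and 0.66 ± 0.34 and did not pass the test. Mcoln1, the calcium channel TRPML1, had -0.56 and did not pass either (edgeR, adjusted p = 0.343).

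Of the control genes, Rragd (chr4:32983037-33022180, plus strand) was close to undetected in cDC1 with LPS, at 0.0893, 0 and 0 CPM, against 1.71, 10.1 and 12.9 CPM with Nothing. This is 1 count in the 3 LPS libraries against 167 counts in the 3 untreated ones. The untreated libraries were uneven, with 2, 80 and 85 counts, so the level in replicate 1 rests on 2 counts. Summed over libraries and set against their scaled totals, the level was 174-fold lower with LPS, with a 95% counting interval of 30.7 to 6890, and edgeR called it (adjusted p = 0.00472); the interval covers counting error only. Leaving out LPS replicate 1, which holds that single count, moved the fitted log2 fold change to -8.56, against -6.79 with all libraries. Rragd was also uneven without LPS: cDC1 with PGPC alone held 93, 10 and 0 counts in its libraries. The 3 transcription factors were not called: log2 fold changes were -0.94 ± 0.56 for Tfeb, 0.23 ± 0.32 for Tfe3 and 0.29 ± 0.51 for Mitf.

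The 8 glycosidases, which strip sugars from glycolipids and glycoproteins, had a median log2 fold change of -0.81 in cDC1, and 3 fell. Glb1, lysosomal beta-galactosidase, stood at 14.1, 17.7 and 12.4 CPM with LPS, against 51.3, 67.9 and 63.0 CPM with Nothing. These groups were far apart, with a log2 fold change of -2.06 ± 0.39 (edgeR, adjusted p = 0.000632). Hexa stood at 115, 162 and 161 CPM with LPS, against 347, 597 and 334 CPM with Nothing, again without overlap (-1.55 ± 0.41, edgeR, adjusted p = 0.00918). The call on Hexa was lost without LPS replicate 1 (adjusted p = 0.0522) or Nothing replicate 2 (0.0612). Naglu, which cleaves heparan sulfate, stood at 53.5, 17.7 and 29.7 CPM with LPS, against 79.5, 95.8 and 67.4 CPM with Nothing. Its groups did not overlap, but the change (-1.24 ± 0.44, edgeR, adjusted p = 0.0491) was just inside the threshold and was lost when any 1 of 5 libraries was left out, all but LPS replicate 1 (adjusted p up to 0.165). Gusb, beta-glucuronidase, had -0.86 ± 0.32 (edgeR, adjusted p = 0.0660), and Gla, Gaa, Neu1 and Manba had log2 fold changes of -0.75, 0.54, 0.04 and -0.60 without a call.

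Psap was the 1 gene called among the 7 other hydrolases and activators in cDC1, whose median log2 fold change was -0.96. The level of this gene (chr10:60277627-60302597, plus strand) was 5420, 3480 and 4350 CPM with LPS, against 17600, 14500 and 13400 CPM with Nothing. All 3 LPS libraries were well below the untreated ones (-1.78 ± 0.36, edgeR, adjusted p = 0.00102). Grn (-0.96 ± 0.35), the palmitoyl-protein thioesterase Ppt1 (-0.96 ± 0.37) and the tripeptidyl peptidase Tpp1 (-1.16 ± 0.42) were just outside the threshold (edgeR, adjusted p = 0.0566, 0.0723 and 0.0568). Lipa, the acid lipase that frees cholesterol from its esters, had 0.77 ± 0.42, and the ceramidase Asah1 and the sphingomyelinase Smpd1 had -0.12 and 0.20; none was called. The summed level of the 15 hydrolases and activators was 5684 to 8322 CPM with LPS against 16313 to 19935 CPM with Nothing, and Psap made up most of it.

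The V-ATPase genes moved in both directions in cDC1. Atp6v0d2 (chr4:19876841-19922605, minus strand), a tissue-restricted form of the d subunit that joins the V0 sector to the V1 stalk, stood at 1.16, 0 and 0.294 CPM with LPS, against 7.70, 38.7 and 47.4 CPM with Nothing. The groups were far apart although the untreated libraries themselves spread widely. The log2 fold change was -5.44 ± 0.86, a level 43.5-fold lower (edgeR, adjusted p = 8.23e-05), and -7.23 without LPS replicate 1, which held 13 of the 14 counts. Atp6v1a (chr16:44085402-44139705, minus strand), the subunit that binds and splits ATP, stood at 255, 331 and 214 CPM with LPS, against 58.2, 61.5 and 78.1 CPM with Nothing. Every LPS library was higher (2.01 ± 0.45, a level 4.04-fold higher, edgeR, adjusted p = 0.00270). The other 9 pump genes had log2 fold changes between -0.72 (Atp6ap1) and 0.70 (Atp6v0d1) and none was called. The summed level of the 11 genes was 1833 to 2001 CPM with LPS against 1314 to 1863 CPM with Nothing, so the totals overlapped.

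**Figure D2:**
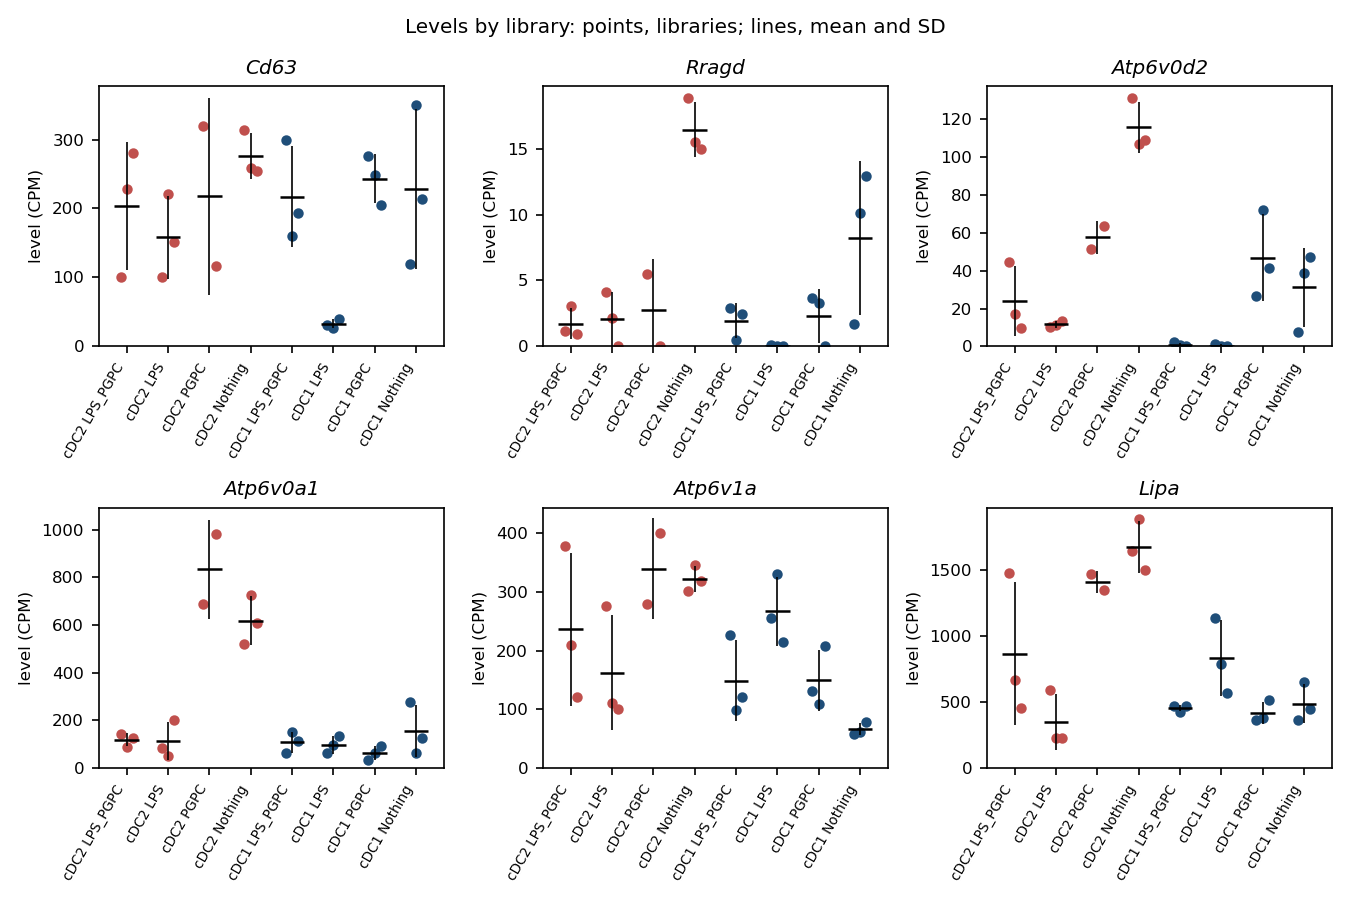
Levels in CPM (vertical axis) of Cd63, Rragd, Atp6v0d2, Atp6v0a1, Atp6v1a and Lipa in each of the 8 groups; points are libraries and lines give the mean with 1 SD (3 libraries a group, 2 for cDC2 with PGPC). Atp6v0d2 averaged 11.8 CPM with LPS against 115 CPM with Nothing in cDC2 and 0.485 against 31.3 CPM in cDC1, and Cd63 of cDC1 averaged 218 CPM with LPS_PGPC against 32.7 CPM with LPS.

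In cDC2, 6 of the 34 genes fell with LPS and 0 rose: the glycosidases Gusb, Hexa and Naglu, the lipase Lipa, and the V0 subunits Atp6v0a1 and Atp6v0d2. Over all tested genes 2.70% were called lower and 5.82% higher (8.52% in all). The median log2 fold change of the 34 was -0.32, beside 0.03 over all tested genes, and 22 were below 0. All 3 LPS libraries lay under all untreated ones for 12 of the 34 and above for 3, where 12.5% and 14.6% of all genes did so. Of the 6 genes, Hexa, Naglu and Atp6v0d2 had also been called lower in cDC1.

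Among the glycosidases of cDC2, Hexa stood at 161, 195 and 194 CPM with LPS, against 656, 527 and 539 CPM with Nothing. The groups were tight and far apart (-1.65 ± 0.41, a level 3.14-fold lower, edgeR, adjusted p = 0.00928). Naglu stood at 57.3, 112 and 97.8 CPM with LPS, against 271, 230 and 232 CPM with Nothing, and Gusb at 138, 191 and 136 CPM with LPS, against 360, 376 and 292 CPM with Nothing. Neither gene's groups overlapped, with log2 fold changes of -1.46 ± 0.44 for Naglu and -1.15 ± 0.33 for Gusb (edgeR, adjusted p = 0.0368 and 0.0257). The call on Naglu was lost when any of the 6 libraries was left out (adjusted p up to 0.14) and that on Gusb without LPS replicate 4 or 6 or Nothing replicate 4 or 5 (up to 0.0973). The other 5 glycosidases, Glb1 among them (-0.84), had log2 fold changes between -0.95 (Manba) and 0.18 (Gla) and were not called.

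Lipa (chr19:34492318-34527474, minus strand) stood at 595, 224 and 227 CPM in cDC2 with LPS, against 1650, 1890 and 1500 CPM with Nothing. The LPS libraries were all lower, replicate 4 least so. The log2 fold change was -2.27 ± 0.44, a level 4.81-fold lower (edgeR, adjusted p = 0.00112), and -2.90 without LPS replicate 4. Psap had -0.48 ± 0.35, and the other 5 genes of this group lay between -0.84 (Tpp1) and 0.71 ± 0.35 (Grn), none of them called. In cDC2 the summed level of the 15 hydrolases and activators was 14051 to 22924 CPM with LPS against 19236 to 34036 CPM with Nothing.

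In the V-ATPase of cDC2, both called genes belong to V0. The summed level of the 11 genes was 1655 to 2294 CPM with LPS against 2455 to 2773 CPM with Nothing, without overlap. Most of the gap between the group means (1962 ± 321 against 2619 ± 159 CPM) lay in the called genes, Atp6v0a1 above all. Without both called genes the sums of the groups overlapped, so the total does not describe a fall of all 11. Atp6v0a1 (chr11:101009452-101063719, plus strand), a form of the large a subunit that lines the proton path, stood at 84.0, 50.6 and 201 CPM with LPS, against 522, 725 and 610 CPM with Nothing. All LPS libraries were lower, replicate 6 least so (-2.48 ± 0.54, a level 5.58-fold lower, edgeR, adjusted p = 0.00334; -3.28 without replicate 6). Atp6v0d2 stood at 10.2, 11.3 and 13.7 CPM with LPS, against 131, 107 and 109 CPM with Nothing. Within each group the libraries lay close together, and the level was 9.93-fold lower with LPS (-3.31 ± 0.73, edgeR, adjusted p = 0.00332). None of the 5 V1 genes was called; Atp6v1c1, a stalk subunit that clamps V1 to V0, came closest (-1.03 ± 0.33, edgeR, adjusted p = 0.0521). Of the membrane and control genes none was called either, and the largest log2 fold change was that of Rragd, at 4.10, 2.15 and 0 CPM with LPS against 18.8, 15.5 and 15 CPM with Nothing (-2.87 ± 1.21, edgeR, adjusted p = 0.173). Cd63 had -0.81 ± 0.44 and Lamp1 had 1.49 ± 0.75 (edgeR, adjusted p = 0.339 and 0.283).

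Markers of monocytes and macrophages, cells rich in lysosomes, moved beside these results. Summed over 12 markers they were at 903 to 2020 CPM with LPS against 1480 to 4240 CPM with Nothing in cDC1, where 9 of 12 were called lower and 2 higher, and F13a1 was at 0 in all 3 LPS libraries. In cDC2 the sums were 2900 to 5690 CPM with LPS against 5720 to 7260 CPM with Nothing, with 2 called lower and 2 higher. Neutrophil markers summed to 0 to 6.70 CPM with LPS against 30.8 to 159 CPM with Nothing in cDC1, where 4 of 5 were called lower. Plasmacytoid markers summed to 283 to 641 CPM with LPS against 56.1 to 119 CPM with Nothing in cDC2, where 2 of 7 were called higher, and to 249 to 420 against 549 to 719 CPM in cDC1, where 2 of 7 were called lower. The part of these markers and of the ribosomal RNA share in the changes of the 34 genes was not tested. A fit over all 36 libraries added the 12 alum libraries, which detected 467 to 2610 genes each, and the library of 3799 counts. It made 3 of the 8 calls in cDC1 (Rragd, Glb1 and Atp6v0d2) and 1 of the 6 in cDC2 (Atp6v0d2), and it called 5.19% and 2.02% of all genes in these comparisons.

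Whether the LPS response differed between the cell types was tested as an interaction, the log2 fold change in cDC2 minus that in cDC1. It was called for 2 of the 34 genes, Lipa and Atp6v1a, both negative, where 0.337% of all tested genes were called negative and 0.995% positive (1.33% in all). Lipa differed by -3.03 ± 0.61 (edgeR, adjusted p = 0.0117), being lower with LPS in cDC2 and at 1140, 789 and 568 CPM with LPS against 363, 652 and 447 CPM with Nothing in cDC1. Those cDC1 libraries overlapped, and the change in cDC1 alone was not called. Atp6v1a differed by -3.00 ± 0.63 (edgeR, adjusted p = 0.0147), being higher with LPS in cDC1 and at 275, 110 and 101 CPM with LPS against 301, 346 and 318 CPM with Nothing in cDC2. In cDC2 all LPS libraries were lower but the change was not called (-0.99 ± 0.44, edgeR, adjusted p = 0.204). Both differences were called with any 1 library left out, and both were larger without cDC2 LPS replicate 4 (-3.67 for Lipa and -3.62 for Atp6v1a). Cd63 (1.99 ± 0.63), Grn (1.67 ± 0.49), Atp6v0a1 (-1.82 ± 0.74) and Atp6v0d2 (2.13 ± 1.06) were not called (edgeR, adjusted p = 0.127, 0.0981, 0.262 and 0.375), so a difference in their response is not shown. DESeq2 called 4 of the 34, adding Cd63 (adjusted p = 0.0376) and Grn (0.00547), and 3.43% of all genes.

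The 2 forms of the V0 d subunit can be set against each other per length. Atp6v0d1, the form found in most cells, and Atp6v0d2 were at 40.1 ± 4.80 and 42.6 ± 4.90 CPM per kilobase in untreated cDC2, so their levels did not differ beyond the spread (SD, n = 3). In untreated cDC1 they were at 53.7 ± 18.5 and 11.5 ± 7.68. Atp6v0d2 made up 5.49, 8.20 and 13.8% of the 2 forms in cDC2 with LPS, against 54.7, 46.6 and 53.1% with Nothing. In cDC1 its share was 0.362, 0 and 0.159% with LPS, against 4.30, 17.8 and 35.0% with Nothing. In both cell types every LPS library had a smaller share than every untreated one. Atp6v0d1 itself was not called with LPS, at 116, 83.5 and 56.7 CPM with LPS against 71.5, 80.8 and 63.6 CPM with Nothing in cDC2 and 211, 133 and 122 CPM against 113, 118 and 58.1 CPM in cDC1. The shares with LPS_PGPC were 13.7 ± 7.66% in cDC2 and 0.278 ± 0.194% in cDC1, and with PGPC alone 29.4 ± 4.77% in cDC2 (n = 2) and 23.5 ± 12% in cDC1.

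**Figure D3:**
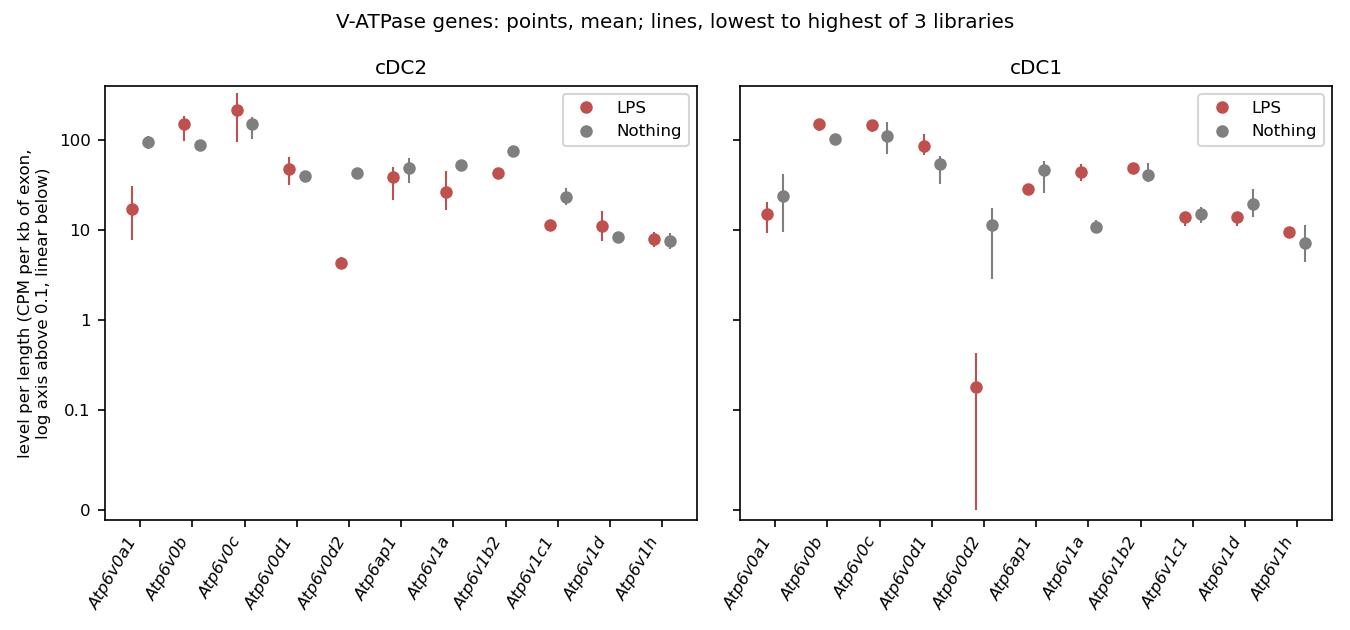
Levels per length (CPM per kilobase, symmetric log axis: logarithmic above 0.1 and linear below) of the 11 V-ATPase genes with LPS and with Nothing in cDC2 and cDC1; points are group means and lines run from the lowest to the highest of 3 libraries. Atp6v0c and Atp6v0b are among the highest in untreated cells, and Atp6v0d2 shows the widest gap between LPS and Nothing in both cell types.

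PGPC alone changed 1 of the 34 genes in cDC1 and 0 in cDC2. Over all tested genes 2.08% were called in cDC1 (1.50% lower and 0.578% higher) and 0.0160% in cDC2 (0.00802% lower and 0.00802% higher). For 3 of the 34 every cDC1 library with PGPC lay under every untreated one and for 5 above, where 9.63% and 8.46% of all genes did so. In cDC2, with 2 libraries against 3, 9 lay wholly lower and 3 wholly higher, where 15.4% and 13.8% of all genes did so. Psap stood at 4950, 5760 and 4970 CPM in cDC1 with PGPC, against 17600, 14500 and 13400 CPM with Nothing. The PGPC libraries lay close together and all below the untreated ones (-1.54 ± 0.35, a level 2.91-fold lower, edgeR, adjusted p = 0.0227), but the call was lost without Nothing replicate 1 (adjusted p = 0.077) or PGPC replicate 1 (0.0564) or 3 (0.0655). Without PGPC replicate 1, 1 gene of the 34 other than Psap was called, where 2.59% of all genes were. The same untreated libraries serve as reference for LPS and LPS_PGPC, so the values of Psap are not independent between these comparisons. Tpp1, at 145, 91.8 and 148 CPM with PGPC against 50.5, 65.8 and 56.6 CPM with Nothing, had 1.15 ± 0.42 without a call (edgeR, adjusted p = 0.153), and Atp6v1a had 1.18 ± 0.44 (adjusted p = 0.167). Lamp1 spread widely with PGPC, from 28.3 to 618 CPM in cDC1. In cDC2, where 2 libraries with PGPC remained, 1 gene of the 34 had an unadjusted p under 0.05 (Ppt1, -1.02 ± 0.46, edgeR, adjusted p = 0.833), and DESeq2 also called 0. Granulocyte markers stood beside the cDC1 values: 7 neutrophil genes summed to 234 to 1120 CPM with PGPC against 30.8 to 159 CPM with Nothing, and mast cell or basophil genes to 47.2 to 71.9 against 1.27 to 2.88 CPM. Elane was at 0 in all 23 libraries. The ribosomal RNA share was 14.1 to 35.4% with PGPC against 40.7 to 71.9% with Nothing in cDC1, and the mitochondrial share of counts 0.716 to 2.00% against 0.260 to 0.718%. The part of these markers and shares in the value of Psap was not tested.

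Adding PGPC to LPS raised 2 of the 34 genes in cDC1, Cd63 and Atp6ap1, where 1.39% of all tested genes were called higher and 0.546% lower (1.93% in all). Cd63 stood at 299, 160 and 193 CPM with LPS_PGPC, against 31.0, 27.2 and 40.0 CPM with LPS. Every LPS_PGPC library was well above every LPS library (2.73 ± 0.47, a level 6.63-fold higher, edgeR, adjusted p = 0.00305). Beside untreated cDC1 the LPS_PGPC level of Cd63 did not differ beyond the spread, at 218 ± 72.7 CPM with LPS_PGPC and 228 ± 116 CPM with Nothing (-0.07 ± 0.44, edgeR, adjusted p = 0.947). Atp6ap1, an accessory subunit that helps assemble V0, stood at 309, 221 and 216 CPM with LPS_PGPC, against 82.2, 86.2 and 91.0 CPM with LPS. These groups did not overlap (1.52 ± 0.37, a level 2.88-fold higher, edgeR, adjusted p = 0.0304), yet the call was lost when any 1 of 5 libraries was left out, all but LPS_PGPC replicate 2 (adjusted p up to 0.128). The median log2 fold change of the 34 was 0.19, beside 0.07 over all tested genes, and it moved between 0.06 without LPS_PGPC replicate 1 (0.09 over all genes) and 0.47 without replicate 3, or 0.44 without LPS replicate 1 and 0.29 without LPS_PGPC replicate 2. For this comparison 8 of the 34 lay wholly higher and 3 wholly lower, where 13.6% and 12.8% of all genes did so.

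Further genes with low values in cDC1 with LPS had higher ones with LPS_PGPC without passing the test. The same LPS libraries of cDC1 serve in this comparison and in that with Nothing. The values of Cd63, Tpp1, Glb1 and Rragd are therefore not independent between these comparisons. Picking genes for low values in those libraries also favours higher values against them. Tpp1 stood at 94.2, 58.1 and 72.7 CPM with LPS_PGPC, against 40.8, 13 and 22.1 CPM with LPS (1.54 ± 0.42, edgeR, adjusted p = 0.0568). Glb1 stood at 51.5, 24.4 and 31.7 CPM with LPS_PGPC, against 14.1, 17.7 and 12.4 CPM with LPS (1.29 ± 0.39, edgeR, adjusted p = 0.0783). Neither gene's libraries overlapped. Rragd had 53 counts in the 3 LPS_PGPC libraries against 1 in the LPS ones, a ratio of 31.7 with a counting interval of 5.44 to 1270 (edgeR, adjusted p = 0.132). DESeq2 called all 3 (adjusted p = 0.00844 for Tpp1, 0.0153 for Glb1 and 0.0447 for Rragd) beside Cd63 and Atp6ap1, 5 in all, and 5.75% of all genes. Tfeb had 1.28 ± 0.55 and Mcoln1 1.03 ± 0.39, both without a call. Psap and Atp6v0d2, both lower with LPS than with Nothing, had log2 fold changes of -0.36 and 0.33 ± 0.90 between LPS_PGPC and LPS and were not called. None of the 12 monocyte and macrophage markers was called in this comparison, and they summed to 644 to 918 CPM with LPS_PGPC against 903 to 2020 CPM with LPS.

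In cDC2, 0 of the 34 genes was called between LPS_PGPC and LPS with edgeR or DESeq2, where 0.385% of all tested genes were (0.281% higher), and 2 had an unadjusted p under 0.05. For 2 of the 34 the LPS_PGPC libraries lay wholly higher and for 1 wholly lower, where 8.50% and 5.39% of all genes did so. Lipa stood at 1480, 669 and 458 CPM with LPS_PGPC, against 595, 224 and 227 CPM with LPS. The groups overlapped, since LPS replicate 4 was above LPS_PGPC replicate 6 (1.32 ± 0.43, edgeR, adjusted p = 0.252). Taken by replicate number, which the fit did not use, LPS_PGPC was above LPS in replicates 4, 5 and 6 alike. Without LPS replicate 4, Lipa was called higher (1.95, edgeR, adjusted p = 0.0371). The median log2 fold change of the 34 was 0.04, with 17 above 0 and 17 below, and it was -0.04 without LPS_PGPC replicate 4 and up to 0.13 without 1 LPS library.

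Set against Nothing, LPS_PGPC gave 1 gene higher and 3 lower in cDC1, where 6.58% of all tested genes were called higher and 5.30% lower (11.9% in all), and 0 higher and 5 lower in cDC2, where 5.42% were called higher and 2.20% lower (7.62% in all). The LPS_PGPC libraries lay wholly higher than the untreated ones for 4 of the 34 and wholly lower for 5 in cDC1 (14.8% and 15.1% of all genes), and for 5 and 13 in cDC2 (18.9% and 13.7% of all genes). The higher gene was Atp6v0c, the proteolipid that forms the rotor ring of V0, at 1100, 1030 and 951 CPM with LPS_PGPC, against 238, 534 and 358 CPM with Nothing. Every LPS_PGPC library was higher (1.44 ± 0.39, a level 2.72-fold higher, edgeR, adjusted p = 0.0156), and the call was lost without Nothing replicate 1 (adjusted p = 0.0834) or 3 (0.0553). Psap stood at 3010, 4250 and 3050 CPM with LPS_PGPC, against 17600, 14500 and 13400 CPM with Nothing (-2.14 ± 0.36, edgeR, adjusted p = 0.000234). Atp6v0d2 stood at 2.18, 0.569 and 0.0937 CPM with LPS_PGPC, against 7.70, 38.7 and 47.4 CPM with Nothing (-5.11 ± 0.80, edgeR, adjusted p = 0.000101; -6.58 without LPS_PGPC replicate 1). For both genes the groups did not overlap. Gusb, at 108, 79.7 and 53.7 CPM with LPS_PGPC against 139, 216 and 191 CPM with Nothing, also fell (-1.18 ± 0.33, edgeR, adjusted p = 0.0170), a call lost without LPS_PGPC replicate 2 (0.0521) or 3 (0.103) or Nothing replicate 2 (0.0677). Of 12 monocyte and macrophage markers, 8 were called lower and 2 higher here, and the ribosomal RNA share was 7.70 to 39.1% with LPS_PGPC against 40.7 to 71.9% with Nothing; their part was not tested.

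In cDC2 the 5 genes lower with LPS_PGPC than with Nothing were Gusb, Hexa, Naglu, Atp6v0a1 and Atp6v0d2, all of which were also lower with LPS against the same untreated libraries. Gusb stood at 87.6, 70.9 and 103 CPM with LPS_PGPC, against 360, 376 and 292 CPM with Nothing (-1.98 ± 0.33, edgeR, adjusted p = 0.000364). Naglu stood at 52.3, 78.5 and 60.4 CPM with LPS_PGPC, against 271, 230 and 232 CPM with Nothing (-1.94 ± 0.44, edgeR, adjusted p = 0.00575). Atp6v0a1 stood at 141, 89.8 and 127 CPM with LPS_PGPC, against 522, 725 and 610 CPM with Nothing (-2.37 ± 0.54, edgeR, adjusted p = 0.00544). For these 3 genes no library overlapped and each call was made with any 1 library left out. Atp6v0d2, at 44.6, 17.4 and 9.57 CPM with LPS_PGPC against 131, 107 and 109 CPM with Nothing, and Hexa, at 197, 246 and 226 CPM against 656, 527 and 539 CPM, did not overlap either (-2.27 ± 0.67 and -1.37 ± 0.40, edgeR, adjusted p = 0.0359 and 0.0351). Their calls were less firm: Hexa lost its call when any of the 6 libraries was left out (adjusted p up to 0.114), and Atp6v0d2 with any but LPS_PGPC replicate 4 left out (up to 0.149; -3.10 without replicate 4). The count of calls was 3 without LPS_PGPC replicate 5 or 6 or any 1 untreated library, where 4.37 to 6.49% of all genes were called. Lamp1 had the largest positive value, 2840, 1920 and 1470 CPM with LPS_PGPC against 580, 352 and 262 CPM with Nothing, without overlap but also without a call (2.37 ± 0.77, edgeR, adjusted p = 0.0610). The interaction for LPS_PGPC was called for 0 of the 34 genes with edgeR (7 at an unadjusted p under 0.05), where 0.305% of all genes were called, and DESeq2 called 1, Grn (1.43, adjusted p = 0.0437), and 1.80% of all genes.

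Between the cell types, 5 of the 34 genes were higher and 1 lower in untreated cDC2 than in untreated cDC1, where 4.01% of all tested genes were called higher and 6.14% lower (10.2% in all). The cDC2 libraries lay wholly higher for 16 of the 34 and wholly lower for 2, where 14.9% and 19.8% of all genes did so. Mitf (chr6:97807052-98021349, plus strand), the TFEB relative best known from melanocytes and osteoclasts, stood at 42.1, 53.2 and 33.7 CPM in cDC2, against 8.55, 5.06 and 5.45 CPM in cDC1. All cDC2 libraries were several times higher (2.85 ± 0.52, a level 7.20-fold higher, edgeR, adjusted p = 0.000939). Lipa stood at 1650, 1890 and 1500 CPM in cDC2, against 363, 652 and 447 CPM in cDC1 (1.78 ± 0.43, edgeR, adjusted p = 0.00872). Atp6v1a stood at 301, 346 and 318 CPM in cDC2, against 58.2, 61.5 and 78.1 CPM in cDC1 (2.28 ± 0.46, edgeR, adjusted p = 0.00203). Both genes were higher in every cDC2 library. Atp6v0a1 stood at 522, 725 and 610 CPM in cDC2, against 278, 62.0 and 126 CPM in cDC1, with cDC1 replicate 1 well above the others (2.00 ± 0.53, edgeR, adjusted p = 0.0166; 2.72 without that library). That call was lost without cDC1 replicate 2 (0.104) or 3 (0.0599) or cDC2 replicate 5 (0.0706). Naglu stood at 271, 230 and 232 CPM in cDC2, against 79.5, 95.8 and 67.4 CPM in cDC1 (1.60 ± 0.44, edgeR, adjusted p = 0.0207), a call lost without any 1 library but cDC2 replicate 6 (up to 0.0701). Atp6v1d, a subunit of the central V1 stalk, was the gene lower in cDC2, at 39.7, 33.6 and 41.2 CPM in cDC2 against 65.0, 132 and 73.0 CPM in cDC1 (-1.26 ± 0.38, edgeR, adjusted p = 0.0358); its call was lost without cDC1 replicate 2 or any 1 cDC2 library (up to 0.229). In this comparison 3 of the 34 were called without cDC1 replicate 2 or cDC2 replicate 5, 10 with median-ratio scaling and 12 with DESeq2. Of all genes tested, 5.45% and 4.44% were called without those libraries, 10.3% with median-ratio scaling and 14.2% with DESeq2.

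**Figure D4:**
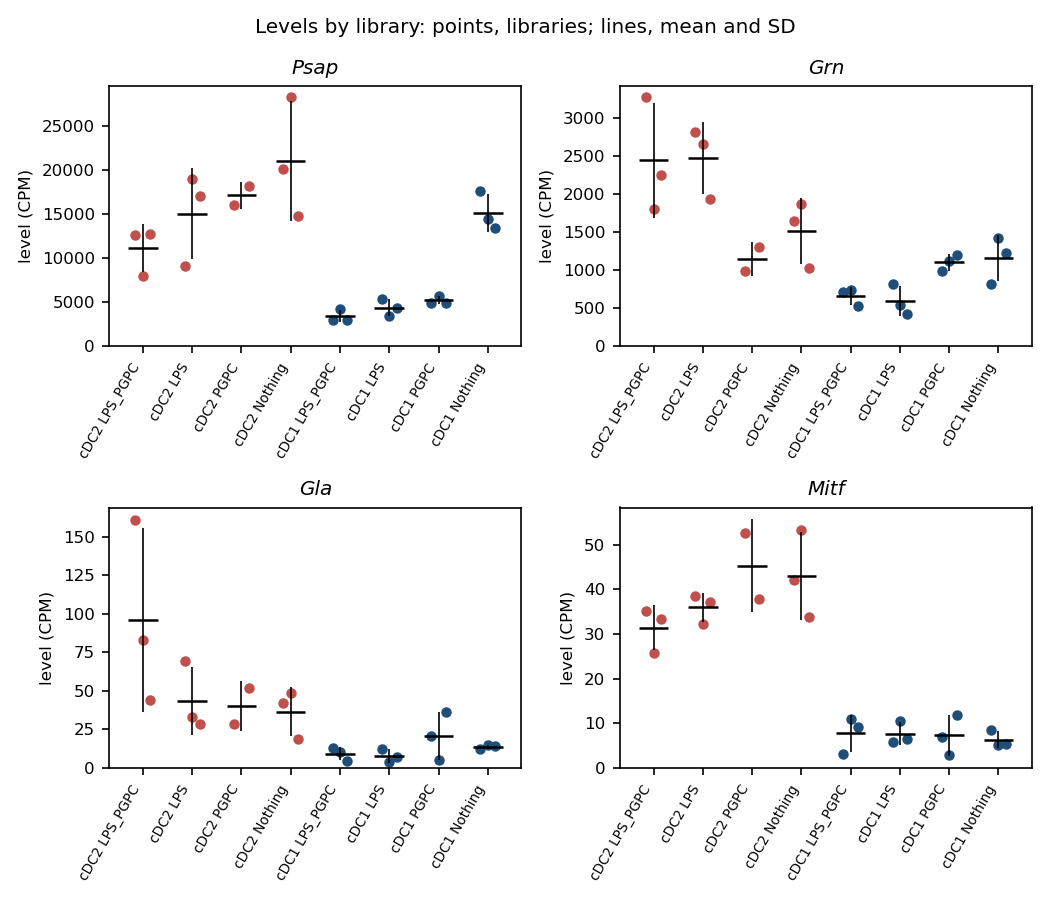
Levels in CPM (vertical axis) of Psap, Grn, Gla and Mitf in each of the 8 groups; points are libraries and lines give the mean with 1 SD (3 libraries a group, 2 for cDC2 with PGPC). The cDC2 libraries of Mitf lie above the cDC1 libraries under each treatment, while those of Grn separate with LPS and LPS_PGPC.

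With LPS in both cell types, 7 of the 34 genes were higher and 0 lower in cDC2 than in cDC1, where 5.59% of all tested genes were called higher and 2.21% lower (7.80% in all). The cDC2 libraries lay wholly higher for 10 and wholly lower for 1, where 13.4% and 13.5% of all genes did so. Cd63 stood at 101, 221 and 152 CPM in cDC2, against 31.0, 27.2 and 40.0 CPM in cDC1 (2.27 ± 0.46, edgeR, adjusted p = 0.00220). Grn stood at 2810, 2660 and 1930 CPM in cDC2, against 812, 542 and 427 CPM in cDC1 (2.06 ± 0.36, edgeR, adjusted p = 0.000517). Psap stood at 9190, 19000 and 17100 CPM in cDC2, against 5420, 3480 and 4350 CPM in cDC1 (1.77 ± 0.36, edgeR, adjusted p = 0.00195). For these 3 genes no library overlapped. Atp6v0d2 stood at 10.2, 11.3 and 13.7 CPM in cDC2, against 1.16, 0 and 0.294 CPM in cDC1 (3.98 ± 0.86, edgeR, adjusted p = 0.00381; 5.77 without cDC1 replicate 1). Mitf stood at 38.4, 32.3 and 37.2 CPM in cDC2, against 5.80, 10.6 and 6.48 CPM in cDC1 (2.27 ± 0.51, edgeR, adjusted p = 0.00469). Both were higher in all cDC2 libraries. Gla, alpha-galactosidase A, stood at 69.1, 32.9 and 28.4 CPM in cDC2, against 12.3, 3.54 and 7.36 CPM in cDC1 (2.42 ± 0.62, edgeR, adjusted p = 0.0146), a call lost without cDC1 replicate 2 (0.0638) or cDC2 replicate 4 (0.0597). Mcoln1 stood at 34.8, 81.3 and 92.9 CPM in cDC2, against 35.7, 20.7 and 25.6 CPM in cDC1; its libraries overlapped (1.33 ± 0.40, edgeR, adjusted p = 0.0396) and the call was lost without any 1 library but cDC2 replicate 4 (up to 0.136). DESeq2 called 11 of the 34 here and 11.4% of all genes.

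With LPS_PGPC, 5 of the 34 genes were higher and 0 lower in cDC2, where 4.60% of all tested genes were called higher and 2.54% lower (7.14% in all): Mitf, Gla, Psap, Grn and Atp6v0d2, which had also been higher with LPS. Gla stood at 161, 82.8 and 43.8 CPM in cDC2, against 13, 10.3 and 4.40 CPM in cDC1 (3.38 ± 0.63, edgeR, adjusted p = 0.00140; 2.78 without cDC2 replicate 4). Atp6v0d2 stood at 44.6, 17.4 and 9.57 CPM in cDC2, against 2.18, 0.569 and 0.0937 CPM in cDC1 (4.69 ± 0.79, edgeR, adjusted p = 0.000485; 6.18 without cDC1 replicate 1 and 3.86 without cDC2 replicate 4). Every cDC2 library was above every cDC1 library for both genes. Mitf stood at 35.2, 25.7 and 33.3 CPM in cDC2, against 3.08, 11 and 9.18 CPM in cDC1 (2.01 ± 0.48, edgeR, adjusted p = 0.0112). Grn stood at 3270, 1800 and 2250 CPM in cDC2, against 720, 735 and 524 CPM in cDC1 (1.89 ± 0.36, edgeR, adjusted p = 0.00163), and Psap at 12700, 8030 and 12800 CPM in cDC2, against 3010, 4250 and 3050 CPM in cDC1 (1.70 ± 0.36, edgeR, adjusted p = 0.00401). Again no library overlapped. Of the 12 monocyte and macrophage markers, 5 were called higher and 1 lower in cDC2 with Nothing, 8 higher with LPS and 9 higher with LPS_PGPC; their part in these differences was not tested. With all 36 libraries in the fit, the calls between the cell types were Mitf with Nothing, Mitf and Atp6v0d2 with LPS, and Gla and Atp6v0d2 with LPS_PGPC.

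Within the TFEB family, taken here as Tfeb, Tfe3 and Mitf, Tfe3 had the largest share of the summed level per length in all 8 groups, with group means of 54.7 to 73.6%. The order was not the same in every library: in cDC1 with LPS_PGPC, replicate 1 had 53.2% Tfeb and 44.0% Tfe3. The share of Mitf was 27.4 ± 6.01% in untreated cDC2 and 7.43 ± 1.15% in untreated cDC1, and that of Tfeb was 9.86 ± 1.52% in cDC2 and 31.3 ± 8.94% in cDC1 (SD, n = 3 each). Neither pair of spreads overlapped, and the 2 factors ranked in opposite order below Tfe3 in the 2 cell types. Shares of a sum depend on each other, and Tfec was not part of the sum. The level of Tfeb itself was 2.49 ± 0.312 CPM per kilobase in untreated cDC2 and 4.42 ± 1.95 in untreated cDC1. Tfeb, Tfe3 and Mitf were not called in any comparison of treatments, and Tfeb and Tfe3 not between the cell types either.

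Beside the 34, 100 of 110 other lysosome genes in 6 lists were tested, and they are given for context. With LPS in cDC1, 7 rose and 20 fell, with a median log2 fold change of -0.35; over all tested genes, as above, 8.58% rose and 9.36% fell. Of 27 other hydrolases 1 rose and 10 fell, among them the GM2 activator Gm2a (-2.06 ± 0.33), the sulfamidase Sgsh (-2.94 ± 0.66) and the fucosidase Fuca1 (-2.14 ± 0.41). Of 23 other membrane genes 1 rose and 7 fell, among them the 2-pore channel Tpcn1 (-2.69 ± 0.45) and Cd68 (-2.27 ± 0.45), which is also a macrophage marker. The genes that rose included the acid phosphatase Acp5 (2.73 ± 0.49), the peptide transporter Slc15a3 (2.39 ± 0.51), the remaining TFEB relative Tfec (4.18 ± 0.77) and the autophagy receptor Sqstm1 (1.69 ± 0.42). In cDC2, 4 rose and 12 fell (median -0.26), where 5.82% of all tested genes rose and 2.70% fell, with 7 of the 27 hydrolases lower, among them Gm2a (-1.46 ± 0.33), Man2b1 (-2.04 ± 0.43) and Sgsh (-2.66 ± 0.66), and Acp5 (3.32 ± 0.53) and Slc15a3 (2.08 ± 0.51) higher. None of the 7 tested other V-ATPase genes was called with LPS in either cell type. Between LPS_PGPC and LPS, 8 of the 100 rose and 0 fell in cDC1, where 1.39% of all tested genes rose and 0.546% fell, 6 of the 8 being hydrolases, Gm2a (1.29, edgeR, adjusted p = 0.0305) included, and 0 was called in cDC2, where 0.385% of all tested genes were.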

How the data were processed

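The authors' deposited table holds expected counts per gene symbol, for which the submitters' processing notes name bcl2fastq 2.2, RSEM and the build GRCm38. The RSEM version, aligner and annotation: not given in the sources used here. These deposited expected counts are not scaled to a common total, and 21.0% of the nonzero values are not whole, so they were rounded. Per the labels' protocols, RNA came from RNeasy Plus Micro kits, and paired-end libraries were prepared with Nextera XT. Smart-Seq2 reads carry no strand, so genes that overlap others are uncertain: Glb1 shares its strand with Tmppe, and Lamp1, Hexa, Grn, Ppt1, Atp6v0b and Atp6v1h overlap genes on the other strand.

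Groups came from the labels. The 23 libraries entered 1 edgeR fit (edgeR 4.0.16, limma 3.58.1, R 4.3.3; TMM, glmQLFit with robust dispersions, glmQLFTest) with 8 group means and 13 contrasts. Low genes were removed with filterByExpr (count of at least 10, total of at least 15). The script was tested on simulated data. The common biological coefficient of variation was 0.545. No 2 replicates agreed within counting noise. Totals of 243861 to 16600980 counts set the precision: 1 count weighs more in a shallow library. Counting intervals are exact conditional 95% intervals and cover counting error only.

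The members and the other gene lists were chosen with earlier results of these data known. By rule, all 34 are accounted for, those called with a log2 fold change of at least 1 are given in every library, and of the other lists up to 4 called genes a direction qualify, of which a part is named. Exon lengths come from GENCODE M21, promoters from RefSeq. Same-numbered replicates correlated above 0.1 in 6 of 18 pairs in cDC1 and 2 of 15 in cDC2, against 0 of 36 and 5 of 30 for different numbers, with median correlations of 0.0484 against -0.0300 in cDC1, and 8 of 12 cDC1 and 6 of 11 cDC2 libraries correlated best with their own number. Since not every same-numbered pair passed 0.1, the numbers were not used to pair libraries. A partial pairing is possible in cDC1, and in cDC2 between LPS and LPS_PGPC. There the same-numbered correlations were 0.520, 0.0909 and 0.204 for replicates 4, 5 and 6. LPS replicate 5 correlated more with LPS_PGPC replicate 6 (0.332) than with its own number. Alternatives were median-ratio scaling, no filter, DESeq2 1.42.0, all 36 libraries, the replicate block, leaving out each library, and, added after seeing the data, leaving out 2 untreated libraries or the ribosomal RNA genes.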

Additional observations from a re-analysis of the deposited data

Results flagged for a closer look

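The response to LPS differed between the cell types for 2 of the 34 genes by a test of the difference itself. Lipa, the lysosomal acid lipase, had a log2 fold change in cDC2 minus that in cDC1 of -3.03 ± 0.61 (edgeR, adjusted p = 0.0117). Its level with LPS was 349 ± 214 CPM against 1680 ± 195 CPM with Nothing in cDC2, and 831 ± 287 against 487 ± 149 CPM in cDC1. Atp6v1a, the catalytic subunit of the V-ATPase, had a difference of -3.00 ± 0.63 (edgeR, adjusted p = 0.0147). Its level with LPS was 162 ± 98.0 CPM against 321 ± 22.7 CPM with Nothing in cDC2, and 267 ± 59.3 against 65.9 ± 10.7 CPM in cDC1 (SD, n = 3 each). Neither was called in the fit over all 36 libraries, and Atp6v1a was not called without untreated replicate 1 of cDC1 and replicate 6 of cDC2 together (adjusted p = 0.0621).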

How the results depend on the processing

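No direction of a called gene reversed under any alternative run. The fit over all 36 libraries lowered the count in each comparison with a call: it called 3 of the 34 genes (8 with the 23 libraries) for LPS in cDC1, 1 (6) for LPS in cDC2, 0 (1) for PGPC in cDC1, 0 (2) for LPS_PGPC against LPS in cDC1, 1 (4) and 0 (5) for LPS_PGPC against Nothing in cDC1 and cDC2, 1 (6), 2 (7) and 2 (5) between the cell types with Nothing, LPS and LPS_PGPC, and 0 (2) for the LPS interaction. Over all genes, in the same order, this fit called 5.19%, 2.02%, 0.374%, 0.0697%, 3.15%, 1.35%, 1.03%, 2.61%, 1.25% and 0.0523%. The fit on 23 libraries called 17.9%, 8.52%, 2.08%, 1.93%, 11.9%, 7.62%, 10.2%, 7.80%, 7.14% and 1.33%. DESeq2 called 12 and 8 for LPS in cDC1 and cDC2 (22.4% and 10.5% of all genes). It called 5 for LPS_PGPC against LPS in cDC1 (5.75%) and 10 for LPS_PGPC against Nothing in cDC2 (10.6%). Between the cell types it called 12 with Nothing and 11 with LPS (14.2% and 11.4%). For the interactions it called 4 with LPS (3.43%) and 1 with LPS_PGPC (1.80%). Without a filter on low counts, 4 were called for LPS_PGPC against LPS in cDC1 (2.39% of all genes) and 1 for the LPS_PGPC interaction (0.903%). With median-ratio scaling 10 were called between the untreated cell types (10.3%). Without the 2 untreated libraries, 0 were called for PGPC in cDC1 (0.714% of all genes), 3 between the untreated cell types (5.56%) and 1 for the LPS interaction (0.802%). With 1 library left out, the counts were 6 to 10 and 4 to 6 for LPS in cDC1 and cDC2 (11.5 to 14.8% and 5.28 to 7.85% of all genes). They were 0 to 1 for PGPC in cDC1 (0.945 to 2.59%) and 0 in cDC2 without any 1 untreated library (0.00800 to 0.00814%). For LPS_PGPC they were 1 to 2 and 0 to 1 against LPS (0.489 to 2.22% and 0.151 to 0.661%). Against Nothing they were 3 to 5 in both cell types (8.71 to 10.4% and 4.37 to 6.49%). Between the cell types they were 3 to 6, 5 to 9 and 5 to 5 (4.44 to 9.74%, 4.05 to 11.1% and 3.26 to 6.88%). For the interactions they were 2 to 3 and 0 to 0 (0.611 to 3.52% and 0.0402 to 0.506%). With the replicate number as a block, 9 and 6 were called for LPS in cDC1 and cDC2 (17.2% and 8.16% of all genes). For LPS_PGPC against LPS, 3 were called in cDC1 (2.21%) and 0 in cDC2 (0.377%). Same-numbered pairs passed the pairing criterion only in part, and the cell types share no number.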
